A study of Mus musculus with 30 samples.

Results

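Transcripts that buffer ATP and oxygen in muscle, 9 of the 55487 genes counted, were followed through serum deprivation of C2C12 myotubes. The members were chosen by symbol for their role and not by a rule on any measured value, although earlier results of these data were known. They encode the creatine kinases (Ckm, Ckb and Ckmt2), the proteins that supply creatine (the transporter Slc6a8 and the synthetic enzymes Gatm and Gamt), myoglobin (Mb), and enzymes of adenine nucleotide balance (adenylate kinase, Ak1, and AMP deaminase, Ampd1). All 9 were abundant enough to be tested, among 15907 genes that passed the filter on low counts.

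C2C12 is an immortal mouse myoblast line whose confluent cells fuse into myotubes. In the study, wild-type (WT) C2C12 cells spent 4 days in low glucose DMEM with 2% horse serum, and then a further 4 days in their condition, for 8 days in all. The groups were 2% HS (horse serum kept at 2%), SD (no serum), MET (no serum, 100 nM metformin), LEU (no serum, 500 nM leucine) and MET+LEU (no serum, 100 nM metformin with 500 nM leucine). MET, LEU and MET+LEU were therefore all serum-deprived, and SD was the control shared by all of them. Every group had 6 libraries of ribosomal RNA-depleted total RNA, 30 in all. No source says that the 6 came from separate cultures, so p-values measure the spread between these libraries, which may be technical.

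Creatine kinase moves phosphate between ATP and creatine. The mitochondrial form charges creatine where ATP is made and the cytosolic forms recharge ADP where ATP is spent, so that phosphocreatine serves as a reserve and a shuttle. Adult fibers mainly use the M isoform (Ckm), and myoblasts the B isoform (Ckb). Creatine itself is mostly taken up through Slc6a8, and it is made from arginine, glycine and a methyl group by Gatm and then Gamt. Adenylate kinase rebuilds ATP from a pair of ADP molecules, and AMP deaminase removes the AMP that results. Myoglobin binds oxygen.

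Libraries held 12784960 to 19604103 counts on genes. A library of MET+LEU, replicate 6, stood apart: nuclear ribosomal RNA took 5.85% and mitochondrial ribosomal RNA 7.64% of its counts, against at most 1.96% and 0.760% in the other 29 libraries. Its scaling factor was 0.803, against 0.968 to 0.985 in the other MET+LEU libraries and 0.997 or more in the other groups. The libraries at 1.96% and 0.760% were also of MET+LEU (replicates 4 and 1). Leaving out replicate 6 therefore does not remove the lower scaling factors of this group. Member calls that involve MET+LEU are given with and without it. Of 12 myotube markers (Myog, Acta1, Actn2, Myh3 and the like) all were detected, and their summed level ran from 11053 to 11805 CPM (counts scaled by library size) in 2% HS, 10053 to 11705 in SD and 10784 to 12532 in MET+LEU. Markers of endothelial, leukocyte, adipocyte and neural cells (Pecam1, Ptprc, Adipoq and Rbfox3) together did not exceed 0.641 CPM in any library.

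Per kilobase of exon, Mb was the most abundant member in every group and Ampd1 the least. The length used merges the exons of all annotated transcripts of a gene. It was 2913 bases for Ckm (3 transcripts), 2895 for Ckb (5) and 1486 for Ckmt2 (1). Ranks between genes therefore depend on the annotation as well as on the RNA, and the transcripts in use were not measured. In 2% HS, the Mb level as FPKM (CPM per kilobase of exon) was 682 ± 45.6 (mean ± SD, n = 6). Ak1 at 112 ± 4.03 and Ckm at 106 ± 5.22 FPKM came next, and differed by less than the sum of their SDs. Slc6a8 followed at 35.2 ± 1.34 FPKM. Gatm at 29.999 ± 1.477, Ckb at 28.3 ± 2.69 and Gamt at 25.7 ± 1.61 FPKM formed a close set in which neighbors differed by less than the sum of their SDs. Ckmt2 at 10.3 ± 1.22 FPKM and Ampd1 at 2.44 ± 0.41 FPKM were the lowest. In SD, Ckm at 53.7 ± 6.11 FPKM separated from Ak1 at 120.5 ± 4.73 FPKM, while Gatm, Ckb and Gamt still differed by less than the sum of their SDs, at 21.9 ± 1.88, 19.2 ± 2.76 and 18.9 ± 2.82 FPKM.

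**Figure D1:**
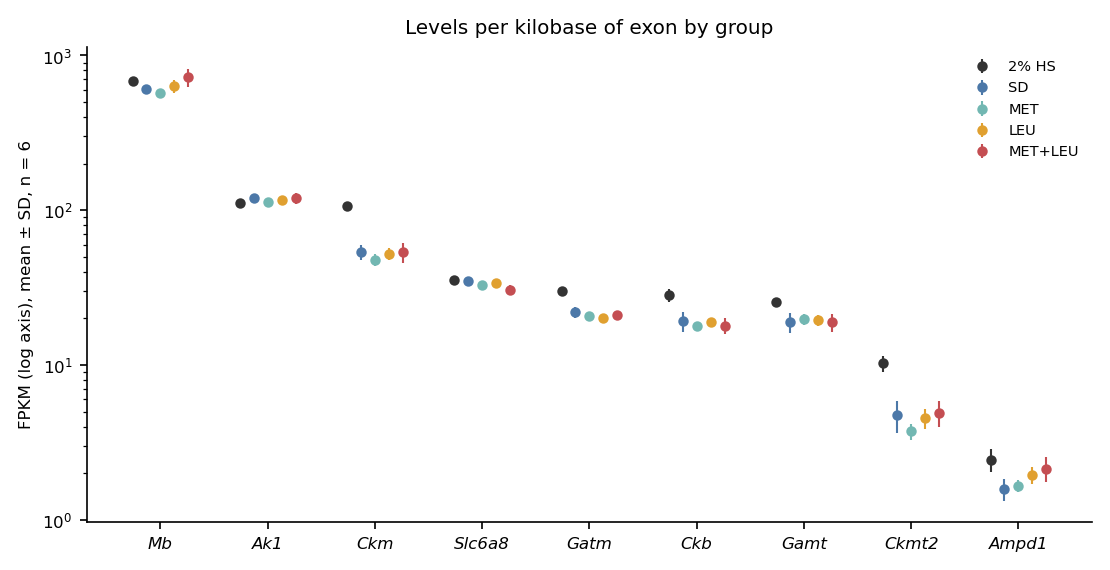
Level of each member per kilobase of exon in the 5 groups, as FPKM on a log axis (points are means of 6 libraries, bars are SD). Mb lies above all others and Ampd1 below them, and the largest separations between 2% HS and the serum-deprived groups are those of Ckm and Ckmt2.

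The muscle creatine kinases and Mb are read from promoters that muscle regulatory factors are known to bind at E-boxes, so the 250 bases before the RefSeq start (build GRCm38.p6) are shown for the creatine kinases, which fell together in SD, and for Mb, which did not pass the test there. Positions are counted back from -1, the base before the start, and capitals mark every match to the E-box CANNTG, which reads alike on both strands and includes CAGCTG. For Mb, which has 3 RefSeq starts, the window lies before the more upstream of a pair of starts 60 bases apart.
Ckm (chr7:19410844-19411093, plus strand): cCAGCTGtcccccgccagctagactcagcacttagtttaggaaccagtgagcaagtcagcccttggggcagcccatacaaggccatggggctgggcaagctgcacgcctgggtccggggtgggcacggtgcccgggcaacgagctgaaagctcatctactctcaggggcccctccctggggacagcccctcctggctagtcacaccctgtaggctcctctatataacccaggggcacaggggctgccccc
Ckmt2 (chr13:91876886-91877135, minus strand): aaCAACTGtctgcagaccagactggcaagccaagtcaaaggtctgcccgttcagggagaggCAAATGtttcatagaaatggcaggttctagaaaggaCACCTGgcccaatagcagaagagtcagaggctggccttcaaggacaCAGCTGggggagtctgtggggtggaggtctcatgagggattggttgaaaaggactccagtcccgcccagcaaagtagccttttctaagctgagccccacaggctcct
Ckb (chr12:111672339-111672588, minus strand): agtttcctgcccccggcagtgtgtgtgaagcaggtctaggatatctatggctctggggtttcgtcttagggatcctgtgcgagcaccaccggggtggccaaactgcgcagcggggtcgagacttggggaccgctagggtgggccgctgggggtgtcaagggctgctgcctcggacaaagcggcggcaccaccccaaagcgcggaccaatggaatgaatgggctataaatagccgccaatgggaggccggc
Mb (chr15:77022788-77023037, minus strand): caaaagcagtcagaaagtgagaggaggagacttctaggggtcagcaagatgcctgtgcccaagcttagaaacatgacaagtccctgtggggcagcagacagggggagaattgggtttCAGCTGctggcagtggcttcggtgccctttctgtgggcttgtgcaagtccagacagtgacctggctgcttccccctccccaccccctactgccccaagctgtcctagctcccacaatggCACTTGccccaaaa
The Ckm window held 1 CAGCTG, which begins at -249, and no other E-box. The Ckmt2 window held 4 E-boxes, of which the CAGCTG begins at -107. The Mb window held 2, of which CAGCTG begins at -133. The Mb window of the other start of the pair held 3 E-boxes, with CAGCTG at -193. That of the distant Mb start held 2 E-boxes and no CAGCTG. The Ckb window held no E-box, and it was the only one of the 4 shown with a TATAAA, which begins at -28. Among 32851 RefSeq windows of the same length, searched on both strands, 66.2% held a CANNTG, 13% (4271 windows) a CAGCTG and 12.4% a TATAAA. These are matches of letters and not measured binding sites. Of the 9 members, 7 had a window, and Slc6a8 and Ampd1 had none. Ak1, which was called higher in SD, also had windows with CAGCTG, beginning at -177 or at -227. Its other windows, and those of Gamt and Gatm, held no CAGCTG.

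Serum deprivation lowered most of the set. In SD vs. 2% HS, 6 of the 9 members were lower, 1 was higher and 2 did not pass the threshold (adjusted p under 0.05, edgeR quasi-likelihood test over all genes tested). Across all genes 27.8% were called, 13.9% in each direction. The libraries of the groups did not overlap for 5 members, all lower in SD, against 7.42% of all genes that were lower without overlap. The median log2 fold change of the members was -0.46, against 0.00 over all genes tested. Of 4 markers of unfused or reserve myoblasts, 1 was called lower in SD (Pax7, log2 fold change -0.37) and 1 higher (Cd34, 0.43), and their summed level ran from 255 to 274 CPM in 2% HS and from 217 to 244 CPM in SD, without overlap; their part in the members' changes was not tested. In bulk RNA, fewer cells of a type and less RNA per cell cannot be told apart.

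**Figure D2:**
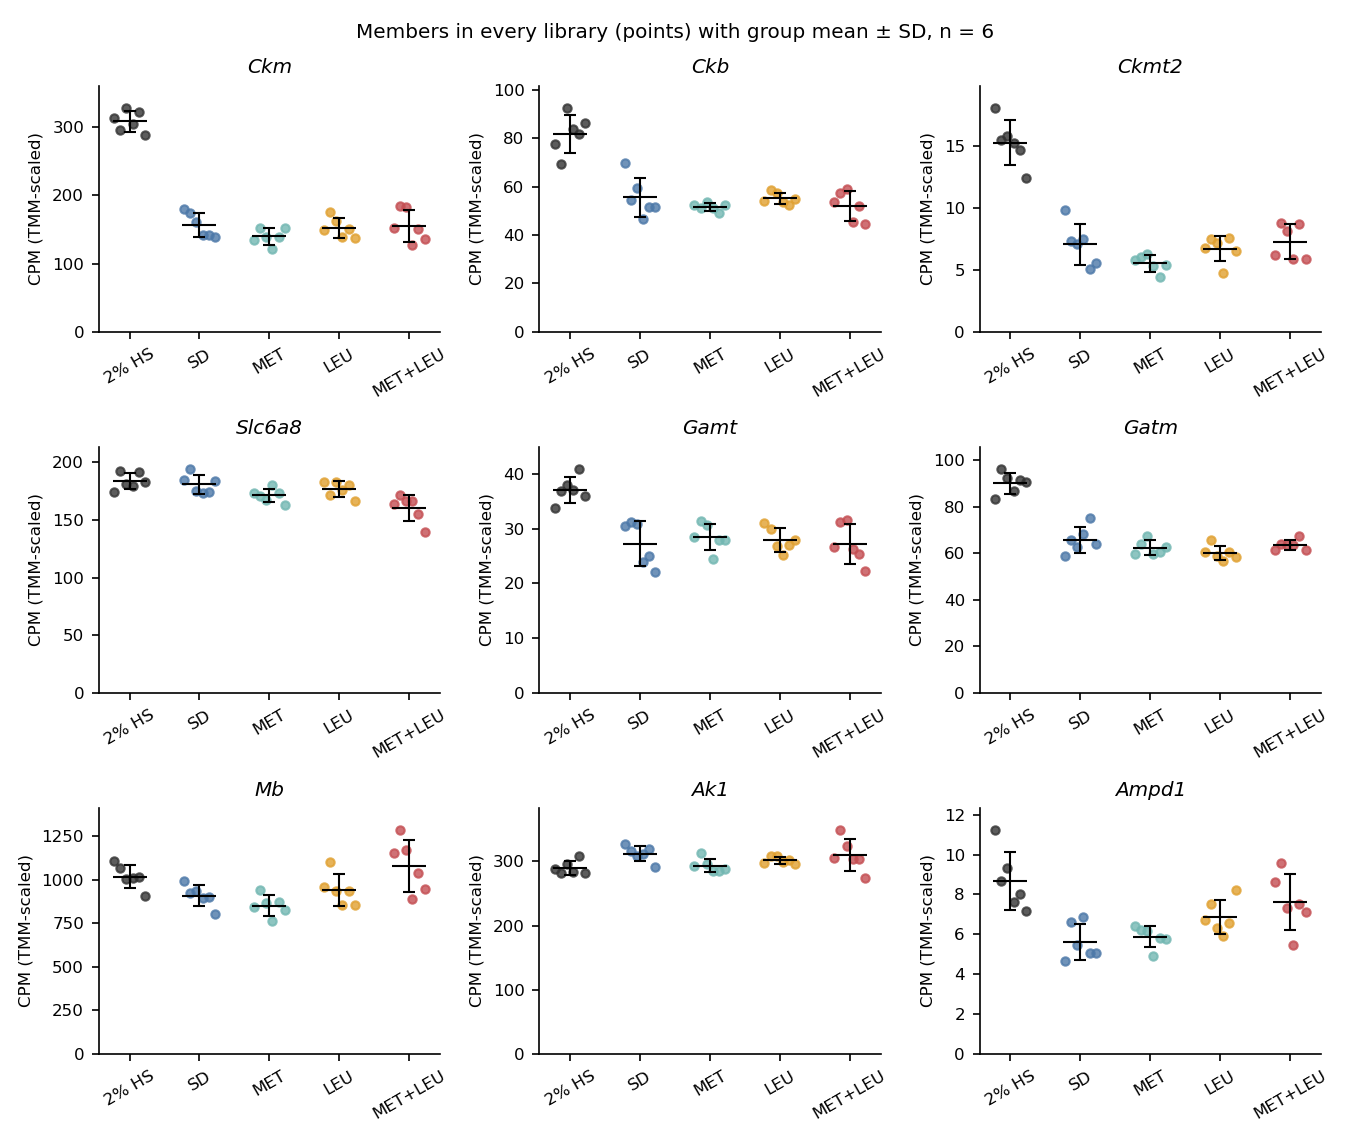
CPM of each member in all 30 libraries, with the mean ± SD of each group (n = 6) and axes from 0. Ckm, Ckmt2, Gamt and Gatm drop from 2% HS to every serum-deprived group, Slc6a8 and Ak1 in SD stay near their 2% HS level, and in MET+LEU Mb and Ampd1 are higher and Slc6a8 lower than in SD.

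Ckm, the muscle cytosolic creatine kinase (ENSMUSG00000030399, chr7:19404776-19422841, GRCm38), had a lowest, median and highest level of 289, 309 and 327 CPM in 2% HS and 139, 152 and 180.0 CPM in SD. Every SD library lay far below every 2% HS library, and the level in SD was 0.507 times that in 2% HS (log2 fold change -0.98, SE 0.085, adjusted p = 6.2e-10). Ckmt2, the sarcomeric mitochondrial form (ENSMUSG00000021622, chr13:91853387-91876885), went from 12.4, 15.4 and 18.1 to 5.08, 7.23 and 9.84 CPM. The libraries again did not overlap, and the level in SD was 0.467 times that in 2% HS (log2 fold change -1.10, SE 0.12, adjusted p = 5.6e-10). Ckb, the brain-type cytosolic form (ENSMUSG00000001270, chr12:111669361-111672338), went from 69.4, 82.9 and 92.3 to 46.8, 53.1 and 69.6 CPM, where the highest SD library (replicate 1) just exceeded the lowest 2% HS library (replicate 2). Its level in SD was 0.68 times that in 2% HS (log2 fold change -0.56, SE 0.073, adjusted p = 2.6e-07). The remaining mitochondrial gene, Ckmt1, was not tested, since no library held more than 2 counts of it. Ckm, Ckb and Ckmt2 transcripts share no exact stretch longer than 20 bases, and Ckmt2 and Ckmt1 none longer than 39, well under the 150-base reads.

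Ckb therefore fell less than Ckm, which the ratio of the 2 counts within each library shows without any scaling of libraries. The Ckm to Ckb count ratio had a lowest, median and highest value of 3.35, 3.78 and 4.25 in 2% HS and 2.59, 2.74 and 3.19 in SD, with no overlap. On the log2 scale it went from 1.918 ± 0.129 (mean ± SD, n = 6) to 1.497 ± 0.114, a difference of -0.42 (two-sided exact permutation p = 0.00216, as small as 6 libraries against 6 allow, and 0.0108 adjusted over 10 ratio comparisons). MET, LEU and MET+LEU stood at 1.430 ± 0.129, 1.465 ± 0.097 and 1.577 ± 0.077. None of these passed the test against SD (adjusted p = 0.538, 0.688 and 0.45, exact permutation tests), and MET+LEU remained -0.34 from 2% HS (adjusted p = 0.0108, exact permutation test). The ratio of Ckm to Ckmt2, the cytosolic against the mitochondrial end of the shuttle, was 4.341 ± 0.149 in 2% HS and 4.492 ± 0.237 in SD, and no comparison of it passed (adjusted p from 0.45 to 0.846, exact permutation tests). Summed per kilobase, the creatine kinases came to 144 ± 7.228 FPKM in 2% HS and 77.6 ± 9.449 FPKM in SD. Of this sum Ckm made up 73.3 ± 1.010% in 2% HS and 69.2 ± 1.527% in SD, and Ckb 19.6 ± 1.505% and 24.7 ± 1.464%. The sum and these shares depend on the merged exon lengths, while the count ratios do not use them.

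**Figure D3:**
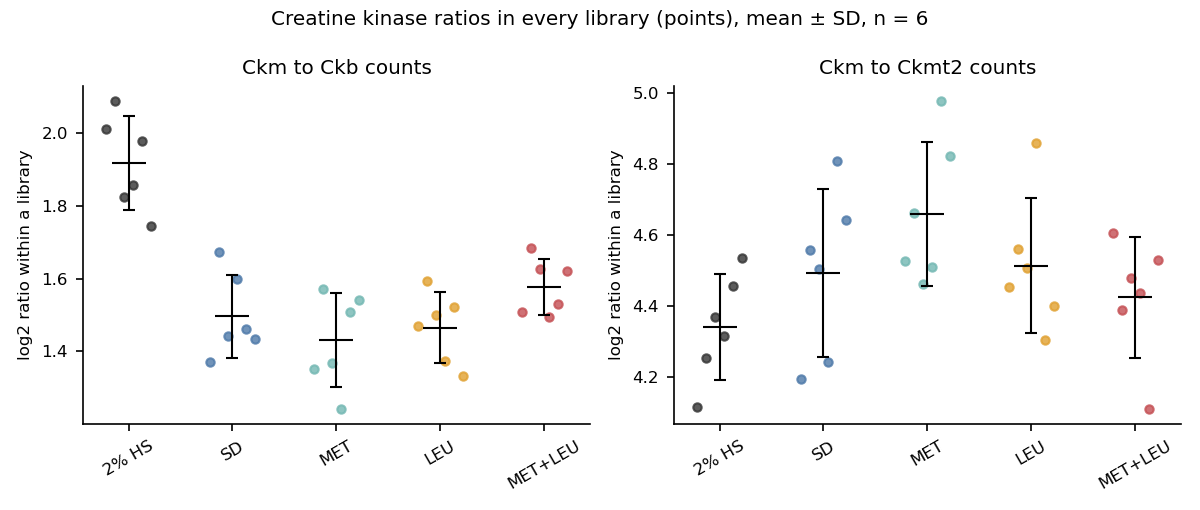
Log2 ratio of Ckm to Ckb counts (left) and of Ckm to Ckmt2 counts (right) within each of the 30 libraries, with the mean ± SD of each group (n = 6). The Ckm to Ckb ratio of every SD library lies below that of every 2% HS library, while the Ckm to Ckmt2 ratios overlap in all groups.

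The creatine supply genes split. Gatm, the enzyme of the first step of synthesis (ENSMUSG00000027199, chr2:122594467-122611303), went from 83.3, 91.0 and 96.0 CPM in 2% HS to 58.8, 64.7 and 75.3 in SD (log2 fold change -0.46, SE 0.046, adjusted p = 3.8e-11). Gamt, which methylates the product to creatine (ENSMUSG00000020150, chr10:80258151-80261012), went from 33.8, 36.9 and 40.9 to 22.1, 27.8 and 31.3 CPM (log2 fold change -0.44, SE 0.079, adjusted p = 3.3e-05). Neither overlapped between the groups, and both stood in SD at about the same share of their 2% HS level, 0.729 and 0.739. Slc6a8, the creatine transporter (ENSMUSG00000019558, chrX:73673150-73682502), had 174, 182 and 192 CPM in 2% HS and 173, 179 and 194 in SD, with widely overlapping libraries (log2 fold change -0.02, SE 0.039, adjusted p = 0.733, 95% interval -0.10 to 0.06).

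Mb, the oxygen-binding protein (ENSMUSG00000018893, chr15:77015487-77050670), had 906, 1009 and 1106 CPM in 2% HS and 805, 912 and 989.8 in SD. The libraries overlapped, and the difference did not pass the threshold (log2 fold change -0.16, SE 0.075, adjusted p = 0.108), although it did in 3 of 9 other analyses, with only the groups compared (adjusted p = 0.00599), with limma-voom sample weights (0.0317) and with the replicate number as a block (0.00225). Ampd1, the muscle AMP deaminase (ENSMUSG00000070385, chr3:103074014-103099720), fell without overlap from 7.19, 8.34 and 11.2 to 4.65, 5.26 and 6.87 CPM (log2 fold change -0.62, SE 0.12, adjusted p = 6.8e-05). It is the member with the fewest counts, 66 to 172 per library in these groups. Ak1, the cytosolic adenylate kinase (ENSMUSG00000026817, chr2:32621758-32635058), was the only member called higher, 1.08 times its 2% HS level, from 282, 286 and 309 to 291, 314 and 328 CPM with overlapping libraries (log2 fold change 0.11, SE 0.038, adjusted p = 0.029). That call was lost in 7 of 30 fits that each left out 1 library, without 2% HS replicates 1, 2, 4 or 6 or SD replicates 1, 2 or 5 (adjusted p up to 0.0757).

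No member was called with metformin or leucine alone. In MET vs. SD, 0 members were called (0.157% of all genes were) and 3 had an unadjusted p under 0.05. These were Ckmt2 (log2 fold change -0.37, adjusted p = 0.315), Ak1 (-0.09, 0.391) and Slc6a8 (-0.08, 0.49), all by edgeR. Ckmt2 had 4.43, 5.59 and 6.30 CPM in MET, overlapping SD. In LEU vs. SD, 0 members were called (0.553% of all genes were) and 2 had an unadjusted p under 0.05, Gatm (log2 fold change -0.13, adjusted p = 0.284) and Ampd1 (0.29, 0.371). Ampd1 had 5.91, 6.64 and 8.25 CPM in LEU, which overlapped SD. DESeq2 and limma-voom also called 0 members in both comparisons. The 95% intervals of the 9 log2 fold changes reached from -0.64 to 0.32 in MET and from -0.35 to 0.54 in LEU, with the widest intervals for Ckmt2 and Ampd1 and the narrowest for Slc6a8 and Ak1.

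**Figure D4:**
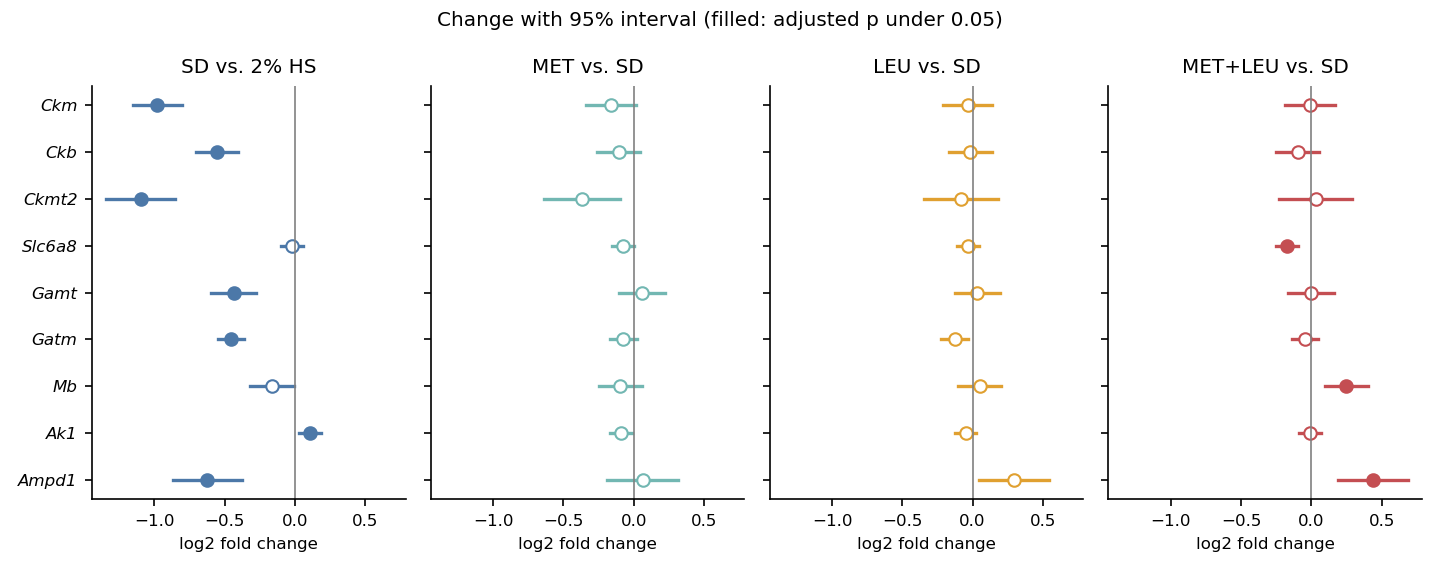
Log2 fold change of each member, from left to right for SD vs. 2% HS and for MET, LEU and MET+LEU each against SD, with 95% intervals (edgeR fit of all 30 libraries, filled points pass an adjusted p under 0.05). The creatine kinases, Gamt, Gatm and Ampd1 lie left of 0 in SD, and in MET+LEU only Mb and Ampd1 lie to the right and Slc6a8 to the left with filled points.

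The combination moved 3 members. Mb and Ampd1 were higher in MET+LEU than in SD, and Slc6a8 was lower, while 18.4% of all genes were called, 10.6% higher and 7.8% lower. The median log2 fold change was -0.01 over the members and -0.01 over all genes tested. The SD libraries are the control here and the treated group in the comparison with 2% HS, so the comparisons are not independent.

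Mb had 889, 1092 and 1282 CPM in MET+LEU, with 4 of 6 libraries (replicates 1, 2, 3 and 5) above every SD library and the other 2 among them. The level was 1.19 times that in SD (log2 fold change 0.25, SE 0.075, adjusted p = 0.0203). The call was lost without SD replicate 6 (adjusted p = 0.0557), MET+LEU replicate 1 (0.0513) or MET+LEU replicate 2 (0.0664), and held without MET+LEU replicate 6 (log2 fold change 0.28, adjusted p = 0.0147). Against 2% HS, Mb in MET+LEU had a log2 fold change of 0.08 (SE 0.075, adjusted p = 0.387). The summed myotube markers were also highest in MET+LEU, with a median of 11699 CPM against 10385 in SD, and 5 of the 12 (Tnnc2, Tnnt3, Tnni2, Myh8 and Myh3) were called higher and 1 (Atp2a1) lower; their part in the Mb result was not tested. Markers of cycling cells (Mki67, Top2a, Cdk1 and the like) moved the other way. All 7 were called lower in MET+LEU vs. SD (median log2 fold change -0.67), with a summed level of 128 to 159 CPM against 174 to 244 CPM in SD, and 4 of the 7 were called lower in LEU vs. SD. Their part in the changes of Mb, Ampd1 and Slc6a8 was not tested either.

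Ampd1 had 5.45, 7.44 and 9.59 CPM in MET+LEU, with 5 of 6 libraries above the highest SD library and replicate 4 among them. The level was 1.35 times that in SD (log2 fold change 0.44, SE 0.12, adjusted p = 0.00918). It kept this in all fits without 1 library (adjusted p up to 0.0440, and 0.0103 with a log2 fold change of 0.45 without MET+LEU replicate 6) and in 8 of 9 other analyses, but not with limma-voom sample weights (log2 fold change 0.36, adjusted p = 0.0866). Against 2% HS it did not pass the threshold (log2 fold change -0.19, SE 0.12, adjusted p = 0.209, 95% interval -0.42 to 0.05). Ampd1 was thus called lower with serum deprivation, higher with the combination than without it, and not called between the combination and 2% HS. Both calls use the same SD libraries. The share of all genes with this pattern is not given here, so the pattern is not read as particular to Ampd1.

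Slc6a8, which serum deprivation had not moved, had 139, 165 and 172 CPM in MET+LEU. All 6 libraries lay below all 6 SD libraries, as happened for 1.93% of all genes in that direction, and the lowest was replicate 6. The level was 0.887 times that in SD (log2 fold change -0.17, SE 0.039, adjusted p = 0.00131), and without replicate 6 the log2 fold change was -0.14 (adjusted p = 0.00310). The call held in every fit without 1 library and under all 9 other analyses (adjusted p up to 0.0388).

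The other 6 members showed no called change with the combination. Ckm had 128, 151 and 184 CPM in MET+LEU (log2 fold change -0.01, SE 0.086, adjusted p = 0.967, 95% interval -0.18 to 0.17). Ckmt2 had 5.90, 7.22 and 8.80 CPM (log2 fold change 0.03, 95% interval -0.23 to 0.29) and Ckb 44.4, 52.8 and 59.2 CPM (-0.10, -0.25 to 0.05). The upper bound of each interval was below the size of that gene's fall from 2% HS to SD. Gamt at 22.2, 26.5 and 31.6 CPM, Gatm at 61.3, 63.6 and 67.4 CPM and Ak1 at 274, 305 and 349 CPM had log2 fold changes of -0.003, -0.05 and -0.01 (adjusted p = 0.987, 0.554 and 0.889).

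Set against 2% HS, MET+LEU myotubes had 6 members lower and 1 higher (42.3% of all genes were called in this comparison, 20.3% lower and 22.1% higher), and all 6 were lower without overlap of libraries (9.51% of all genes were). The log2 fold changes were -0.99 for Ckm, -1.07 for Ckmt2, -0.66 for Ckb, -0.50 for Gatm, -0.44 for Gamt and -0.19 for Slc6a8 (adjusted p of at most 7.0e-05). Without MET+LEU replicate 6 the 6 were still called lower, from -1.03 for Ckmt2 to -0.17 for Slc6a8. Ak1 was called higher (log2 fold change 0.10, SE 0.038, adjusted p = 0.0354), a call that was lost in 25 of the 30 fits without 1 library (adjusted p up to 0.257, but 0.00323 without MET+LEU replicate 6) and in 3 of 9 other analyses.

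Against each single agent, fewer members were called than against SD. An unadjusted p under 0.05 (edgeR) was reached by 5 members in MET+LEU vs. MET and 2 in MET+LEU vs. LEU, against 3 in MET+LEU vs. SD. In MET+LEU vs. MET, 2 members were higher (8.69% of all genes were called, 5.54% higher), Mb (log2 fold change 0.34, SE 0.075, adjusted p = 0.00538) and Ampd1 (log2 fold change 0.37, SE 0.12, adjusted p = 0.0449). The Ampd1 call was lost in 23 of 30 fits without 1 library (adjusted p up to 0.152), and Ckmt2 just missed the threshold (log2 fold change 0.40, SE 0.13, adjusted p = 0.0541). Without MET+LEU replicate 6, Mb was called (0.37, adjusted p = 0.00479), Ampd1 was not (0.38, 0.0609) and Ckmt2 was (0.44, 0.0457). In MET+LEU vs. LEU, 1 member, Slc6a8, was lower (6.28% of all genes were called, 1.67% lower; log2 fold change -0.14, SE 0.039, adjusted p = 0.0269), and the call was lost without LEU replicate 3 (adjusted p = 0.0576) or MET+LEU replicate 6 (0.0670). The interaction term asks whether metformin and leucine together did other than add, and in it edgeR, DESeq2 and limma-voom each called 0 members (edgeR called 0.0503% of all genes). Of the 9, 4 had an unadjusted p under 0.05 in it, Mb at 0.29 (adjusted p = 0.393), Ckmt2 at 0.48 (0.425), Ak1 at 0.13 (0.447) and Gatm at 0.16 (0.468).

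The members did not vary as 1 block. After the group means were taken out, log2 CPM over the 30 libraries correlated most between Ckm and Mb (Pearson r = 0.83), Ckm and Gamt (0.75), Gamt and Ak1 (0.71), Ckm and Ak1 (0.71) and Ckm and Ckb (0.70). Gatm, which fell with Ckm in SD, had an r of 0.02 with it inside the groups, against 0.88 when group differences were left in. These are descriptions over libraries that share depth and scaling. Over all 30 libraries the genes named here whose log2 CPM ran most like each member were Atp2a1 (r = 0.98) and Tgm2 (0.98) for Ckm, Ckm (0.94) for Ckmt2, Actc1 (0.95) and Akr1b3 (0.95) for Ckb, Adamts5 (0.94) and Ivns1abp (0.94) for Gatm, and Adssl1 (0.91) and Mmp11 (0.90) for Gamt. For Mb they were Mybpc1 (0.89) and Cyfip2 (0.87), for Slc6a8 Atp6v1b2 (0.87) and Gpc1 (0.87), for Ampd1 Grem1 (0.83) and Fsd2 (0.83), and for Ak1 Extl3 (0.73) and Usp4 (0.72). The sarcoplasmic calcium pump Atp2a1 is also 1 of the 12 myotube markers.

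The neighboring pathways were read from 7 lists of 61 genes, of which 51 were tested. With serum deprivation 9 of the 51 were higher and 10 lower, where 13.9% of all genes were called in each direction. With the combination against SD, 4 were higher and 6 lower, where 10.6% and 7.8% of all genes were. Most lists are short, and several of their counts move by more than 1.5 times when 1 library is left out, as given beside them. The median log2 fold change of all genes tested was 0.00 and -0.01 in these comparisons. Among 14 genes of the purine nucleotide cycle, AMP breakdown and salvage, 13 were tested, 3 rose and 3 fell in SD (median 0.03, and -0.07 in MET+LEU vs. SD). Ampd3, the AMP deaminase of many tissues, went from 49.8, 52.2 and 54.7 to 29.1, 33.9 and 36.5 CPM without overlap (log2 fold change -0.64, SE 0.056, adjusted p = 3.9e-13). Adssl1, the muscle adenylosuccinate synthase that follows the deaminase in the cycle, fell too (log2 fold change -0.46, SE 0.060, adjusted p = 1.2e-07), and Nt5c, a nucleotidase, rose (log2 fold change 0.36, SE 0.069, adjusted p = 5.9e-05). The others that passed were Nt5e (log2 fold change -0.50), Pnp (0.40) and Aprt (0.25), named after their values were seen. With MET+LEU vs. SD, Aprt (-0.31, adjusted p = 0.00117) and Ampd2 (-0.26, 0.00351) were lower, and Nt5c (0.27, 0.0033) and Adss (0.22, 0.0187, also named after its value was seen) were higher. Ampd3, in MET+LEU at 26.8, 33.0 and 34.0 CPM, did not pass the test there (log2 fold change -0.09, SE 0.058, adjusted p = 0.329), unlike Ampd1, and the difference between them was not tested.

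Of the 6 other adenylate kinases tested, 2 fell in SD and 2 rose (median -0.20), and the 4 calls were 2 without 2% HS replicate 2. Ak4, a mitochondrial form, went from 15.9, 18.3 and 23.2 to 6.67, 9.80 and 12.6 CPM (log2 fold change -0.97, SE 0.17, adjusted p = 7.2e-05), and Ak5 from 2.78, 3.54 and 4.49 to 0.923, 1.89 and 2.32 CPM (log2 fold change -1.02, SE 0.21, adjusted p = 0.000119), both without overlap. Ak3 rose by a small amount (log2 fold change 0.14, adjusted p = 0.0133), as Ak1 had. In MET+LEU vs. SD, edgeR and DESeq2 called 0 of the 6 and limma-voom 1, with a median of 0.03, and 1 had an unadjusted p under 0.05. That count was 1 without SD replicate 3 or MET+LEU replicate 3.

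Genes that carry or make the substrates of creatine moved in both directions. Of 10 tested, 3 rose and 3 fell in SD (median 0.07, and -0.06 in MET+LEU vs. SD). Ass1, of arginine synthesis, went from 24.4, 28.2 and 30.1 to 37.6, 45.0 and 48.6 CPM (log2 fold change 0.66, SE 0.061, adjusted p = 2.0e-12), and the cationic amino acid transporter Slc7a2 from 148, 154 and 161 to 198, 205 and 213 CPM (log2 fold change 0.41, SE 0.039, adjusted p = 2.9e-12). Its relative Slc7a1 fell (log2 fold change -0.30, SE 0.036, adjusted p = 3.2e-09). The other 3, named after their values were seen, were Slc16a12 (1.45, adjusted p = 0.000574), Mat2a (-0.23, 6.4e-08) and Shmt2 (-0.13, 0.0232). Slc16a12 lay near the floor, with 2 to 11 counts per library in 2% HS and 11 to 23 in SD. With MET+LEU, Slc7a2 was higher again (0.13, adjusted p = 0.00952) and Slc7a1 (-0.25, 2.5e-06) and Shmt2 (-0.23, 0.00025) lower than in SD.

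Of 5 nucleoside diphosphate kinases tested, Nme1 rose in SD (0.26, adjusted p = 0.00277) and was lower in MET+LEU than in SD (-0.21, 0.029). In SD the list had 2 calls without any 1 of 6 libraries (2% HS replicates 1 and 4, SD replicates 1 and 2, LEU replicate 4 and MET+LEU replicate 6), and in MET+LEU vs. SD it had 0 without SD replicates 1 or 3 or MET+LEU replicate 6. Of 10 genes of de novo purine synthesis, edgeR, DESeq2 and limma-voom called 0 in SD vs. 2% HS, where 2 had an unadjusted p under 0.05, and in MET+LEU vs. SD Pfas was lower (-0.19, 0.00691) and Gmps higher (0.12, 0.0461). These 2 calls were 1 in 21 of the 30 fits without 1 library and 0 with only the groups compared, and the count of 0 in SD was 1 without 2% HS replicate 6 or SD replicate 2. Of 6 mitochondrial exchange genes, the phosphate carrier Slc25a3 (-0.14, 0.0183) and the channel Vdac2 (-0.10, 0.0263) fell slightly in SD. The 2 calls were 1 without 2% HS replicate 3 or SD replicates 2 or 4, and 3 without MET+LEU replicate 6; the 0 calls in MET+LEU vs. SD were 2 without SD replicates 4 or 5 or MET+LEU replicate 2, and 1 without SD replicate 3 or MET+LEU replicate 6. Cygb was the only other globin tested and did not pass in either comparison (log2 fold change 0.10 and 0.60, adjusted p = 0.857 and 0.187, edgeR).

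**Figure D5:**
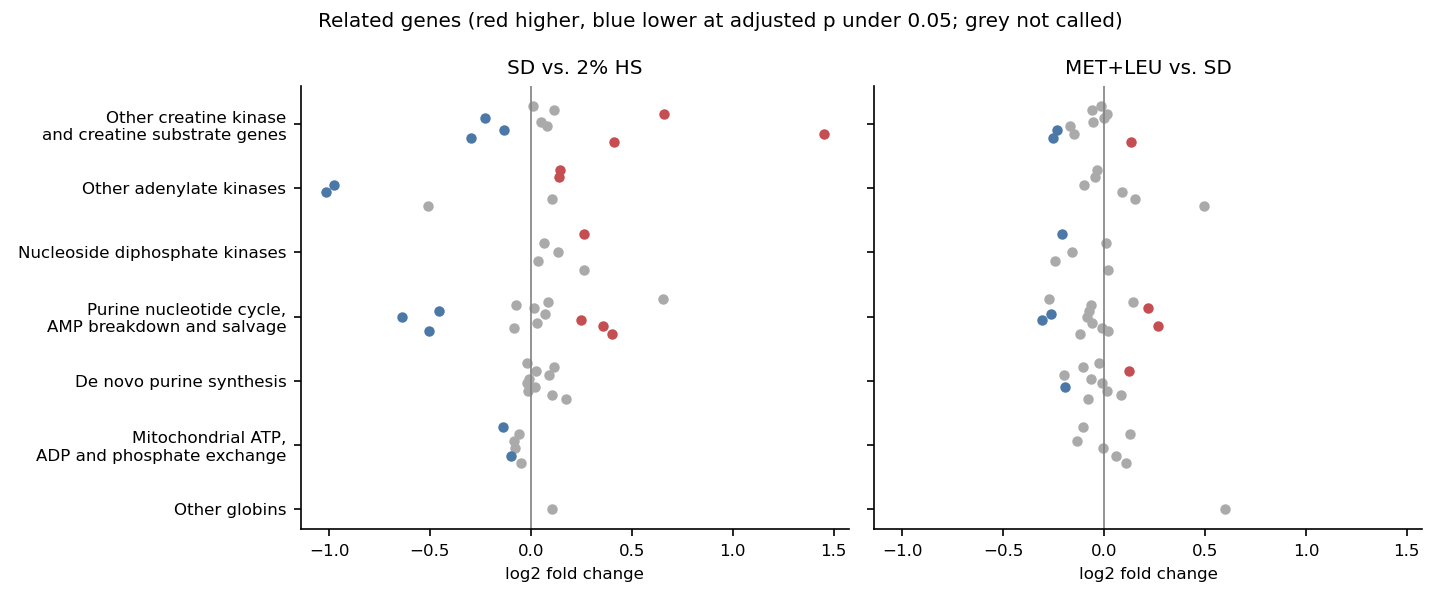
Log2 fold change of the 51 tested genes of 7 related lists in SD vs. 2% HS (left) and MET+LEU vs. SD (right), where each point is a gene, red is higher, blue is lower and grey did not pass an adjusted p under 0.05 (edgeR). In SD the widest spread is among adenylate kinases and genes of creatine substrates, and in MET+LEU vs. SD the called genes lie close to 0. Among the genes of creatine substrates, the point farthest from 0 in SD is Slc16a12, which has few counts.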

How the data were processed

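The authors sequenced stranded, ribosomal RNA-depleted libraries of C2C12 myotubes and deposited raw counts per gene, whole numbers without normalization. The submitters' processing notes name cutadapt 1.16, STAR 2.7.6a, featureCounts 1.6.3 and GRCm38. The annotation release and strand setting are not given in the sources used here. Genes overlapping Ckm, Ckmt2 and Mb on the opposite strand held at most 0.650% of the member's counts, and 2 genes within Ampd1 that share no exon base with it at most 1.52%.

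Members and lists were chosen with earlier results of these data known. Of 55487 identifiers, 55227 matched GENCODE M21, which gave symbols, coordinates and exon lengths, and FPKM is TMM-scaled CPM over merged exon length. In R 4.3.3, edgeR 4.0.16 kept 15907 genes by filterByExpr (minimum count 10, total 15), and glmQLFit (robust) fitted all 30 libraries with a mean per group, with Benjamini-Hochberg adjustment over all genes. Genes named were the 9 members, per list up to 3 called genes with the smallest p in either of SD vs. 2% HS and MET+LEU vs. SD, and per member the 2 genes with the highest correlation among those with a mean log2 CPM of 3 or more. Alternatives included DESeq2 1.42.0, limma 3.58.1 (voom), other scalings and filters, and leaving out each library. Some results under these rules are not reported here. The fit was tested on simulated data. Intervals cover counting error and the spread between libraries.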

Additional observations from a re-analysis of the deposited data

How the results depend on the processing

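Beside 30 fits that each left out 1 library, 10 other analyses were run. The member counts against 2% HS, and those of every treated group against SD, stayed within 1.5 times under all of them. In MET+LEU vs. MET the count of 2 was 1 with DESeq2 size factors in edgeR, upper-quartile scaling, limma-voom weights, the filter of more than 5 counts, only the groups compared and the 0.01 threshold, and it ran from 1 to 3 with a library left out. In MET+LEU vs. LEU the count of 1 was 2 with limma-voom weights and 0 with only the groups compared or the 0.01 threshold, and ran from 0 to 2 with a library left out. The 10 pathway calls in MET+LEU vs. SD were 5 with only the groups compared. The cause was not tested.

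Near 0, signs turned. In MET+LEU vs. SD, limma-voom weights gave 0.016 for Ckm, 0.061 for Gamt and 0.0077 for Ak1, and the fit of only the groups compared gave 0.0019 for Gamt. With a library left out, log2 fold changes there ran from -0.0681 to 0.0359 for Ckm, -0.0507 to 0.147 for Ckmt2, -0.0615 to 0.0407 for Gamt and -0.0519 to 0.0179 for Ak1. The Ckm to Ckb log2 ratio in LEU vs. SD ran from -0.0569 to 0.0039 and that of Ckm to Ckmt2 from -0.0472 to 0.0857. None of these was called in any such fit.

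Over all genes tested, same-numbered libraries of different groups had a mean correlation of deviations of 0.016 (-0.09 to 0.14), against -0.0031 for different numbers. This mean does not show whether the numbers pair the libraries for single members, which was not tested, and a block on them moved some member calls. With the replicate number as a block, MET+LEU vs. LEU had 2 calls, adding Mb (log2 fold change 0.19, adjusted p = 0.00372), and the interaction had 1, Mb (0.29, adjusted p = 0.0267). Ckmt2 passed in MET+LEU vs. MET (adjusted p = 0.0327) and Mb in SD vs. 2% HS. Paired by number, the Ckm to Ckb differences of -0.42 and -0.34 against 2% HS had an adjusted p of 0.156 each in an exact sign-flip permutation test. Both reached the smallest unadjusted p that this test allows, 0.0313, which the adjustment over 10 ratio comparisons carried above the threshold. No other member call changed under the block. Ampd1 and Ckmt2, with the fewest counts, had the widest standard errors.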
